A study of Mus musculus with 20 samples.

Results

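Knockouts of adhesion genes were examined in mouse nephron progenitor cells (NPCs) that were kept in low CHIR, the condition in which they self-renew. In the paper, NPCs stayed dispersed in low CHIR, and the failure to aggregate without α-catenin or the cadherins was shown in high CHIR. Adhesion itself was not measured in these libraries. The 4 libraries of both adhesion knockouts, 2 of α-catenin KO and 2 of QCKO, were joined and compared with 3 CTRL libraries of the same condition. These 7 libraries are all of the adhesion knockout and CTRL libraries in low CHIR among the 20 libraries of the series, and they were chosen by their column names.

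All 7 cultures were primary NPCs from E16.5 kidneys of mice that carry Cas9-eGFP, so the nuclease was present in CTRL and knockouts alike, whereas the eGFP of this allele was the target in CTRL. The guide RNAs (sgRNAs) were delivered 48 h before a further 24 h in 1.25 µM CHIR, a GSK3β inhibitor, and the sequenced cells were sorted for mCherry, whose mRNA had been delivered with the guides. CTRL cells received a guide against GFP, α-catenin KO cells a guide against *Ctnna1*, and QCKO cells guides against *Cdh2*, *Cdh3*, *Cdh4* and *Cdh11* together. Replicate numbers stand for the dates in the sample titles. CTRL has replicates 1, 2 and 3, α-catenin KO has replicates 1 and 3, and QCKO has replicates 2 and 3. An edited culture is a mixture of cells with different repair products and not a clone, and the labels do not say whether dates correspond to separate litters. The mRNA values do not measure how much protein was left.

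Classical cadherins bind their like on the neighbouring cell, and their cytoplasmic tails hold β-catenin or its relative plakoglobin. α-Catenin, the product of *Ctnna1*, binds β-catenin and links the complex to actin. *Cdh2* (N-cadherin) and *Cdh11* are typical of mesenchymal cells. *Cdh3* (P-cadherin) and *Cdh4* (R-cadherin) are induced when NPCs begin to form the epithelium of the nephron. β-Catenin is also the transcriptional partner of TCF/LEF factors in Wnt signalling, which is why a loss of adhesion might be looked for in Wnt targets as well as in adhesion genes. Among the transcription regulators of self-renewing NPCs are *Six2*, *Cited1*, *Eya1*, *Osr1* and *Wt1*.

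Of the guides used in QCKO, those against *Cdh3*, *Cdh4* and *Cdh11* are shown to identify the edits that separate QCKO from CTRL and from α-catenin KO. Each is the 20-base target-specific part of the sgRNA, written 5′ to 3′, and the capitals mark the 12 bases next to the PAM, where mismatches are least tolerated.
Cdh3 guide: ccgaugaaGCCCGCUCGGUA
Cdh4 guide: ccauccccAGGCCCACCGUG
Cdh11 guide: caccagcaCAGGGUCAGGCC
They hold 13, 15 and 14 G or C bases of 20, respectively.

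The first question was whether the targeted mRNAs were lower in the libraries given the matching guide. Normalised read counts are counts scaled by a size factor for each library, and for 1 gene they can be compared between libraries. For *Ctnna1* they were 10082, 7749 and 9634 in CTRL, 3599 and 3790.2 in α-catenin KO, and 8327 and 8939 for QCKO. Both α-catenin KO libraries lay far below the other 5, at 40.4% of the CTRL mean, and the QCKO libraries lay within the range of CTRL. *Cdh11* read 5112, 3594 and 4295 in CTRL, 6277 and 4565 in α-catenin KO, and 2519 and 1818 for QCKO. Both QCKO libraries were below all others, at 50.0% of the CTRL mean.

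*Cdh2* had counts of 4920.4, 3857 and 2241 in CTRL, 3378 and 3613 in α-catenin KO, and 2592 and 2071 for QCKO. The QCKO libraries averaged 63.5% of CTRL, but 1 CTRL library (replicate 3) lay between them. *Cdh3* read 277, 726 and 612 in CTRL, 304 and 799 in α-catenin KO, and 535 and 829 for QCKO, with the low values in the replicate 1 libraries of CTRL and α-catenin KO. *Cdh4* read 2494, 1888 and 2404 in CTRL, 2306 and 2353 in α-catenin KO, and 1796 and 2512 for QCKO, so the groups overlapped throughout. The QCKO mean was 127% of CTRL for *Cdh3* and 95.2% for *Cdh4*, and neither transcript was lower beyond the spread of CTRL.

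In exact two-sided permutation tests of each knockout against CTRL, 2 libraries against 3, *Ctnna1* and *Cdh11* reached p=0.1, the smallest value that 10 splits allow. Against all 5 low CHIR libraries not given the guide, both reached p=0.0476 by exact permutation, again the smallest possible with 21 splits. The same exact permutation test gave p=0.238 for *Cdh2*, p=0.524 for *Cdh3* and p=0.857 for *Cdh4*. In the joined group each targeted gene mixes 2 edited with 2 unedited libraries, and the joined 4 against 3 exact permutation p values were 0.2 for *Ctnna1* and 0.686 for *Cdh11*. Thus, the mRNA of *Ctnna1* and *Cdh11* marked the edited libraries, whereas that of the other 3 targets did not separate them. By immunofluorescence, the paper reported loss of detectable Cdh2 and Cdh11 and of most α-catenin, Cdh3 and Cdh4 with its guides. For Cdh3 and Cdh4 this was assayed after induction. A transcript near the CTRL level therefore does not show that a knockout failed.

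**Figure D1:**
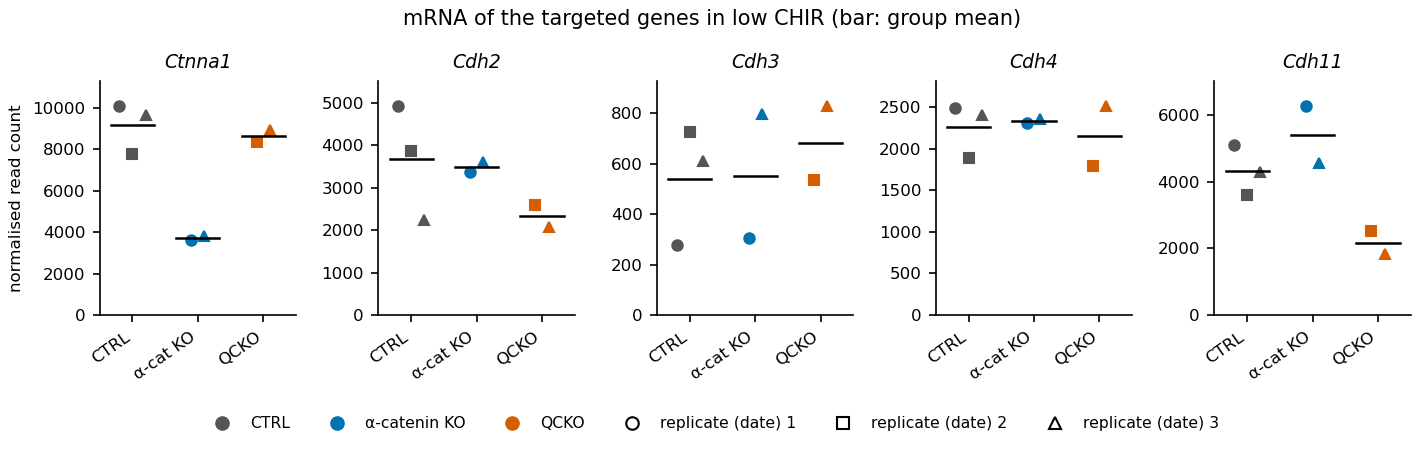
Normalised read counts (vertical axes, starting at 0) of the 5 targeted genes in the 7 low CHIR libraries, by group, with the date as symbol and the group mean as a bar. *Ctnna1* was at 3599 and 3790.2 in α-catenin KO against 7749 or more elsewhere, and *Cdh11* was at 2519 and 1818 in QCKO against 3594 or more elsewhere.

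Depth was similar across the 7 libraries, with 19950784 to 24236309 reads in genes and 26373 to 27485 genes with a read. Of 10 progenitor markers, 7 could be matched to an identifier, and their summed normalised counts ran from 15619 to 21896 in CTRL and from 14099 to 19004 in the knockouts. Markers of other kidney cell types were poorly covered, with an identifier for 5 of 13 ureteric epithelium, 1 of 10 stroma, 2 of 8 endothelium, 1 of 8 leukocyte and none of 12 podocyte and tubule markers. The ureteric sum spanned 337 to 1669 in CTRL and 419.8 to 1126 in the knockouts, and the libraries of replicate 1 were lowest in both groups. In bulk RNA, fewer cells of a type and less RNA per cell cannot be told apart. The p-values here measure the spread between these libraries.

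Across all genes, the joined knockouts could not be told from CTRL by the test used. With limma on log2(normalised count + 1), 0 of 16314 genes (0%) passed an adjusted p under 0.05 with an absolute log2 difference over 0.5, and the lowest adjusted p was 0.999. An unadjusted p under 0.05 was found for 319 genes (1.96%), 161 of them higher and 158 lower in the knockouts. Where no gene differs, 815.7 would be expected at that threshold, so the count was below it. The fit leaves differences between dates and between both knockouts within its spread. An adjusted p of 0.999 in limma therefore does not show that the groups are equal. edgeR and DESeq2 on recovered read counts also called 0 genes, and each gave 351 genes at an unadjusted p under 0.05. With the date as a block the limma count without adjustment was 742 genes (4.55%), the lowest adjusted p was 0.10, and still 0 genes were called. DESeq2 with the date as a block called 10 genes, 2 higher and 8 lower, whereas edgeR with the block called 0 and gave 773 genes at an unadjusted p under 0.05. *Tmem52b*, the 1 gene with a symbol among the 10, read 5.36, 184 and 78.3 in CTRL, 0.86 and 33.1 in α-catenin KO, and 22.6 and 14.5 for QCKO, with a DESeq2 log2 difference of -2.33 and an adjusted p of 0.0189.

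Most differences were small. The median absolute log2 difference was 0.15, 127 genes differed by more than 1, and the median 95% interval reached 0.50 to either side of the estimate. For 11745 genes the whole interval lay between -1 and 1. For the remaining genes the interval reached beyond a log2 difference of 1 in at least 1 direction.

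The 4 knockout libraries were all above the 3 CTRL libraries for 342 genes (2.10%) and all below for 380 (2.33%). Among the 3805 tested genes with a symbol the counts were 83 above (2.18%) and 115 below (3.02%). Symbols came from the authors' tables of differing genes, so these genes had been chosen for a difference somewhere in the series. The genes that led the comparison were taken from this group, as the 10 in each direction with the smallest p among those with a symbol and a mean of at least 50. None passed the adjusted test, and all 20 have an adjusted p of 0.999 in limma. Their lack of overlap and small unadjusted p were set by that choice, so the p-values and intervals given for them are a description.

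Among the leading genes with higher levels, *Gxylt2* and *Slit2* act in signalling at the cell surface. *Gxylt2* encodes a xylosyltransferase that extends O-glucose on the extracellular repeats of Notch proteins. Its normalised counts were 530.2, 483 and 519.7 in CTRL, 722 and 724 in α-catenin KO, and 647 and 728 for QCKO. Every knockout library exceeded every CTRL library, and the log2 difference was 0.46 (95% interval 0.21 to 0.72), with an unadjusted limma p of 0.00266. *Slit2* encodes a secreted ligand of Robo receptors. It read 359.7, 437 and 510.2 in CTRL, 527 and 612 in α-catenin KO, and 543 and 641 for QCKO, a log2 difference of 0.42 (95% interval 0.08 to 0.77), and its highest CTRL library came close to the lowest knockout library.

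*Amotl2* encodes an angiomotin-family protein of cell junctions that binds YAP and is itself a target of YAP. Its counts were 259, 314 and 328 in CTRL, 380.3 and 406 in α-catenin KO, and 491 and 517 for QCKO. The knockouts averaged 149% of CTRL, with QCKO above α-catenin KO, and the log2 difference was 0.57 (95% interval 0.20 to 0.94), with an unadjusted limma p of 0.00703. *Tcf7*, which encodes a DNA-binding partner of β-catenin, read 172, 157 and 152 in CTRL, 235 and 208 in α-catenin KO, and 186 and 279 for QCKO. Its log2 difference was 0.48 (95% interval 0.07 to 0.89), and its 2 QCKO libraries were further apart than the 3 CTRL libraries. The amino acid transporter gene *Slc38a2* read 2494, 2771 and 2773 in CTRL, 2846 and 3423 in α-catenin KO, and 3702 and 3566 for QCKO, a log2 difference of 0.33. The remaining leading genes with higher levels were *Dcaf12l1* (0.63), *Zfp365* (0.63), *Mideas* (0.53), *2810410L24Rik* (0.50) and *Jtb* (0.40), given as log2 differences. *Mideas* encodes a subunit of a histone deacetylase complex.

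On the lower side, *Slc40a1* had the largest difference of the 20. It encodes ferroportin, the iron exporter of the cell membrane. Its counts were 1087, 611 and 683 in CTRL, 495 and 327 in α-catenin KO, and 487 and 198 for QCKO. The knockouts averaged 47.4% of CTRL, the log2 difference was -1.12 (95% interval -1.89 to -0.35), and the unadjusted limma p was 0.00934. The gap between the groups, 494.7 against 611, was narrow beside the spread within each. *Sox9*, a transcription factor gene of developing epithelia, read 611, 689 and 778 in CTRL, 551 and 522 in α-catenin KO, and 514 and 571 for QCKO, and its log2 difference was -0.35 (95% interval -0.64 to -0.07).

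The other leading genes with lower levels were *Ndufa2* and *Ndufa3* (subunits of respiratory complex I), *Uqcr10* (complex III), *Atp5k* (ATP synthase), *Polr2j* (RNA polymerase II), *Selenbp1* (a selenium-binding protein) and the dynein light chain genes *Dynlt1c* and *Dynlt1f*. For *Ndufa2* the counts were 3823, 4282 and 4179 in CTRL, 3679 and 3214 in α-catenin KO, and 3257 and 3216 for QCKO. The α-catenin KO library of replicate 1 stood nearest to CTRL, as it did for *Ndufa3* (-0.30), *Atp5k* (-0.29) and *Polr2j* (-0.28), whose log2 differences are given in parentheses. *Uqcr10* read 5207, 8170.4 and 6526 in CTRL, 4666 and 4836 in α-catenin KO, and 5171 and 4763 for QCKO, a log2 difference of -0.43 (95% interval -0.75 to -0.10) that was -0.26 without CTRL replicate 2. *Dynlt1c* (-0.28) and *Dynlt1f* (-0.28) are near-identical copies that can share reads, so they are not separate evidence.

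Each knockout library was also set against the CTRL library that shares its date. These 4 differences are not independent, since both replicate 3 knockouts share 1 CTRL library. Over all genes tested, 1487 (9.11%) were higher in all 4 and 1493 (9.15%) were lower in all 4. All 20 leading genes had 1 sign in the 4 same-date differences, which the absence of overlap fixes. For *Gxylt2* the 4 differences were close together, from 0.42 to 0.49, whereas for *Slc40a1* they ran from -1.78 to -0.33 and for *Zfp365* from 0.27 to 1.02.

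**Figure D2:**
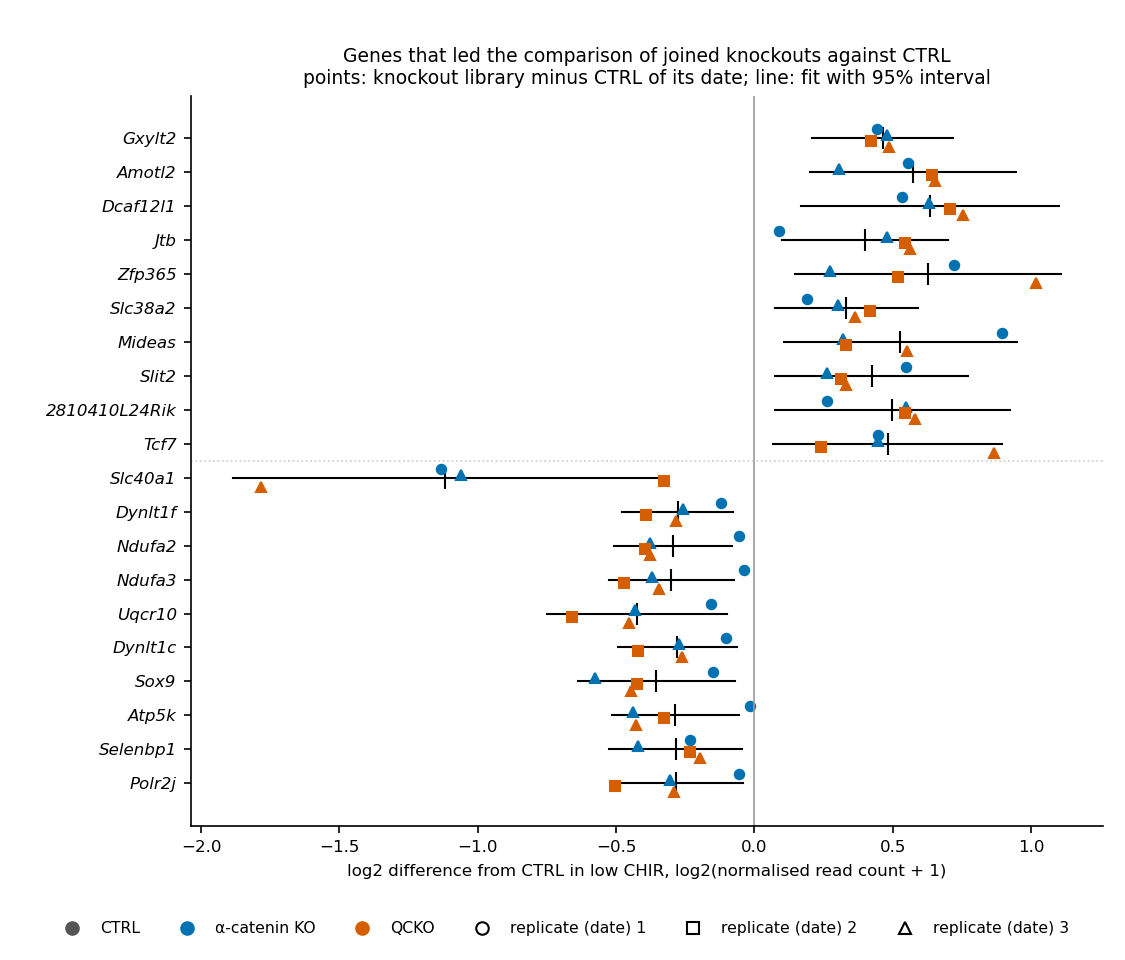
Log2 differences from CTRL in low CHIR for the 20 leading genes (horizontal axis), with a point for each knockout library minus the CTRL library of its date and a line for the estimate of the fit with its 95% interval. Every point lies on the side of its estimate, and for *Ndufa2*, *Ndufa3*, *Atp5k* and *Polr2j* the α-catenin KO library of replicate 1 lies nearest to 0.

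The self-renewal genes were examined to ask whether the progenitor state differed. *Six2*, the defining transcription factor of NPCs, read 1539.6, 1642 and 943 in CTRL, 1468 and 1384 in α-catenin KO, and 1318 and 1373 for QCKO. All 4 knockout libraries lay inside the CTRL range, and the log2 difference was 0.05 (95% interval -0.37 to 0.47). For *Eya1*, which encodes a partner of Six2, the difference was 0.02 (95% interval -0.28 to 0.32), and for *Osr1*, an early regulator of the kidney lineage, it was -0.11 (95% interval -0.43 to 0.20). *Meox2* differed by -0.22 (95% interval -0.82 to 0.38) and *Foxc2* by 0.23 (95% interval -0.41 to 0.87). The intervals of all 5 include 0. With 1 library left out, *Foxc2* ranged from 0.037 to 0.44 and *Osr1* from -0.23 to -0.068.

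*Cited1* and *Wt1* had the largest differences among the 7 self-renewal genes. *Cited1*, a transcriptional co-regulator of uncommitted NPCs, read 6965, 3987 and 6898 in CTRL, 5229 and 3369 in α-catenin KO, and 3408 and 4493 for QCKO. The groups overlapped, because CTRL replicate 2 was low, but each knockout library was below the CTRL library of its date, and the log2 difference was -0.51 (95% interval -1.03 to 0.02) with an unadjusted limma p of 0.0557. With 1 library left out, the difference ranged from -0.77 (without CTRL replicate 2) to -0.37 (without CTRL replicate 1). *Wt1*, a zinc finger transcription factor of progenitors and later of podocytes, read 825, 815 and 926 in CTRL, 995 and 1074 in α-catenin KO, and 964 and 1062 for QCKO. The knockouts were above CTRL in every library, by a log2 difference of 0.26 (95% interval 0.02 to 0.50) and an unadjusted limma p of 0.0376, and its 4 same-date differences were between 0.20 and 0.27.

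The list had a median log2 difference of 0.02, beside 0.01 over all genes tested, with 0 of 7 members called and 1 at an unadjusted p under 0.05, beside 1.96% of all genes. For scale, the CTRL cells of high CHIR (5 µM) differed from the same CTRL libraries by -4.20 for *Six2*, -3.73 for *Cited1* and -2.02 for *Wt1* on the same log2 scale. Both comparisons share the CTRL libraries of low CHIR. Of 16 further progenitor genes tested, the median was 0.0022. *Crym*, which encodes a thyroid hormone-binding protein, was the member with an unadjusted p under 0.05. It read 3625, 2743 and 3241 in CTRL, 3043 and 2120.0 in α-catenin KO, and 2276 and 2414 for QCKO, a log2 difference of -0.38 (95% interval -0.72 to -0.05).

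Genes of nephron induction were next examined, since low CHIR is the condition without induction. *Wnt4*, the signal that drives the transition to epithelium, read 41.1, 72.6 and 71.98 in CTRL, 43.9 and 123 in α-catenin KO, and 98.0 and 102 for QCKO. *Jag1*, a Notch ligand of the early nephron, read 145, 505 and 694 in CTRL, 218 and 899.6 in α-catenin KO, and 359 and 907 for QCKO, and *Lhx1*, a transcription factor gene of the renal vesicle, read 17.9, 95.3 and 131 in CTRL, 14.6 and 111 in α-catenin KO, and 53.8 and 145 for QCKO. For each of these genes the replicate 1 libraries of CTRL and α-catenin KO were the lowest of the 7. The log2 differences were 0.51 (95% interval -0.36 to 1.38) for *Wnt4*, 0.44 (95% interval -1.01 to 1.89) for *Jag1* and -0.02 (95% interval -1.99 to 1.95) for *Lhx1*. The intervals all include 0, and that of *Lhx1* is the widest. Against the CTRL library of the same date, *Wnt4* was higher in all 4 knockout libraries, by 0.09 to 0.77, and *Jag1* in 3 of 4, with differences from -0.49 to 0.59.

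Of the 20 induction genes 10 were tested, with a median of 0.05. By knockout the median was 0.02 for α-catenin KO and 0.46 for QCKO, which has no replicate 1 library. For the joined knockouts with the date as a block it was -0.00031. Of the 10, 2 were higher and 1 was lower in all 4 same-date differences, where the shares over all genes were 9.11% and 9.15%. 1 member was at an unadjusted p under 0.05 in each direction, *Tcf7* higher and *Sox9* lower, beside 1.96% of all genes for both directions together. That p had already placed both among the leading genes. In CTRL cells of high CHIR, *Wnt4* was 6.33, *Jag1* 4.12 and *Lef1* 4.09 log2 units above CTRL of low CHIR. Of the Wnt feedback genes, *Axin2* read 39.3, 71.5 and 61.4 in CTRL, 42.2 and 56.0 in α-catenin KO, and 74.6 and 68.5 for QCKO, a log2 difference of 0.08 (95% interval -0.61 to 0.77), and *Lef1* differed by 0.05 (95% interval -0.44 to 0.54). *Lgr5* differed by -0.0045 and the secreted inhibitor gene *Frzb* by -0.01. The 5 tested members of that list had a median of 0.05.

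**Figure D3:**
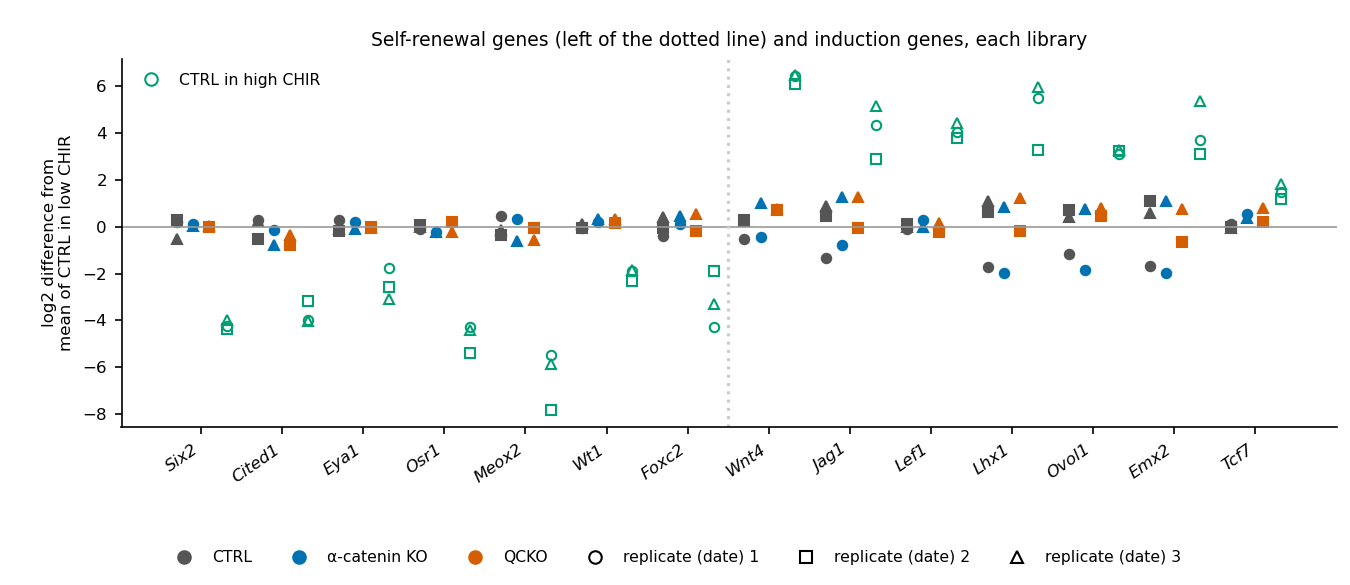
Log2 difference of each library from the mean of CTRL in low CHIR (vertical axis) for 7 self-renewal and 7 induction genes, with CTRL of high CHIR as open green symbols. Low CHIR libraries of all 3 groups stayed within 1 log2 unit of the CTRL mean for the self-renewal genes, with *Cited1* and *Meox2* lowest in the knockouts, and for *Jag1*, *Lhx1* and *Emx2* the replicate 1 libraries (circles) of CTRL and α-catenin KO lay lowest.

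Adhesion genes other than the targets were then considered by role. Among the catenins and their linkers, 4 of 20 could be tested, and *Ctnnd2*, which encodes the p120-family protein δ-catenin, had the largest difference, at -0.96 (95% interval -2.06 to 0.15). Of the other cadherins, 3 of 19 were tested. *Cdh1*, the E-cadherin gene of epithelia, read 34.8, 448 and 167 in CTRL, 35.3 and 296 in α-catenin KO, and 159.6 and 112 for QCKO, and its differences by date took both signs. *Cdh13* differed by 0.02 and *Cdh15* by -0.32 on the log2 scale. None of the 3 was called.

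Immunoglobulin-type adhesion genes had a median of 0.14 over 9 tested members. *Nrcam*, which encodes an adhesion molecule known from neurons, read 76.8, 82.3 and 76.2 in CTRL, 74.0 and 53.5 in α-catenin KO, and 35.6 and 44.3 for QCKO. All knockout libraries were below CTRL, with QCKO lowest, and the log2 difference was -0.64 (95% interval -1.27 to -0.01) with an unadjusted limma p of 0.0485. The 6 tested genes of the protocadherin and FAT family all had estimates above 0, as had 8502 of the 16314 genes tested, and 0 of the 6 had an unadjusted limma p under 0.05. Their median was 0.21. *Fat4*, a giant cadherin of planar polarity and Hippo signalling, read 118, 120.2 and 174 in CTRL, 176 and 175 in α-catenin KO, and 178 and 178 for QCKO, where the 4 knockout libraries were nearly equal and 1 CTRL library almost reached them. The 4 tested genes of tight and gap junctions had a median of -0.20, and *Gja1*, which encodes connexin 43, differed by 0.06 (95% interval -0.18 to 0.29).

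Junctions restrain YAP and TAZ, the effectors of Hippo signalling, and 9 of 24 YAP target genes could be tested. Their median log2 difference was 0.25, beside 0.01 over all genes, and 5 of the 9 were above CTRL in all 4 same-date differences, where the share over all genes was 9.11%. Without the α-catenin KO library of replicate 1 the median was 0.11. They were *Amotl2*, *Ccn1*, *Axl*, *Dock5* and *Ccdc80*. *Ccn1*, a secreted matrix protein gene, read 793, 637 and 309 in CTRL, 926 and 782 in α-catenin KO, and 661 and 504 for QCKO, and its log2 difference was 0.38 (95% interval -0.36 to 1.11). For *Axl*, a receptor tyrosine kinase gene, it was 0.25 (95% interval -0.31 to 0.81). *Ccdc80* was at -0.00170, so its same-date sign does not carry over to the group means. Of the 9, 0 were called and 1 had an unadjusted p under 0.05, beside 1.96% of all genes, namely *Amotl2*, which that p had already placed among the leading genes.

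Actin and SRF target genes had a median of 0.09 over 6 tested members. *Tpm1*, which encodes a tropomyosin of actin filaments, read 2518, 2292 and 2270.5 in CTRL, 3236 and 3312 in α-catenin KO, and 2178 and 2026 for QCKO. Both α-catenin KO libraries were above all others, while the QCKO libraries were below CTRL, so the joined log2 difference was 0.15. Of the matrix genes 9 were tested, with a median of 0.08, 7 estimates above and 2 below 0, and 0 at an unadjusted limma p under 0.05. Of the 9, 4 were higher in all 4 same-date differences, beside 9.11% of all genes. The largest differences were those of 2 members, as *Lamb2* (a laminin chain) differed by 0.57 (95% interval -0.05 to 1.18) and *Col6a1* (a collagen chain) by 1.10 (95% interval -0.54 to 2.73). Among proteases, *Mmp9*, a gelatinase gene, read 17.0, 14.1 and 9.53 in CTRL, 21.5 and 47.5 in α-catenin KO, and 37.3 and 64.6 for QCKO. All 4 knockout libraries were above CTRL, at low counts, with a log2 difference of 1.52 (95% interval 0.59 to 2.45) and an unadjusted limma p of 0.0051. The 7 tested epithelial and mesenchymal genes had a median of 0.16, with 5 estimates above and 2 below 0 and 0 at an unadjusted limma p under 0.05. They ran from *Mal* (-0.33) to *Krt8* (0.66).

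The largest median of any list was that of the p53 response, 0.51 on the log2 scale over 10 of its 20 genes. Without CTRL replicate 1 it was 0.19, below the 0.25 of the YAP and TAZ targets in the same fit. p53 is a transcription factor that responds to DNA breaks, among other stresses. *Cdkn1a*, the cell cycle inhibitor p21, read 826, 2532 and 1681 in CTRL, 1136 and 2029 in α-catenin KO, and 3121 and 4033 for QCKO. The α-catenin KO libraries lay inside the CTRL range and both QCKO libraries above it. *Ccng1* (cyclin G1) read 1234, 1793 and 1894 in CTRL, 1471 and 2173 in α-catenin KO, and 2877 and 3091 for QCKO, with both QCKO libraries highest and the α-catenin KO library of replicate 3 also above CTRL. *Sesn2*, a stress-induced regulator of metabolism, read 269.5, 454 and 306 in CTRL, 345 and 404 in α-catenin KO, and 718 and 648 for QCKO. For *Cdkn1a* and *Sesn2*, therefore, only the QCKO libraries were outside the CTRL range.

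The log2 differences of the joined groups were 0.61 (95% interval -0.46 to 1.68) for *Cdkn1a*, 0.52 (95% interval -0.08 to 1.11) for *Ccng1* and 0.59 (95% interval -0.07 to 1.25) for *Sesn2*. *Trp53inp1* was the 1 member of 10 with an unadjusted p under 0.05, beside 1.96% of all genes, at 0.58 (95% interval 0.02 to 1.14). Of the 10, 7 were higher in all 4 same-date differences, where the share over all genes was 9.11%. Of the 10, 0 separated the 4 knockout from the 3 CTRL libraries, where the shares over all genes were 2.10% above and 2.33% below. The other 3, *Plk2* (0.08), *Rps27l* (-0.03) and *Fas* (-0.26), did not share that pattern. By knockout, the list median was 0.12 for α-catenin KO and 0.86 for QCKO, and the number of different guides was 1 against 4. The part of the guides in the result was not tested.

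**Figure D4:**
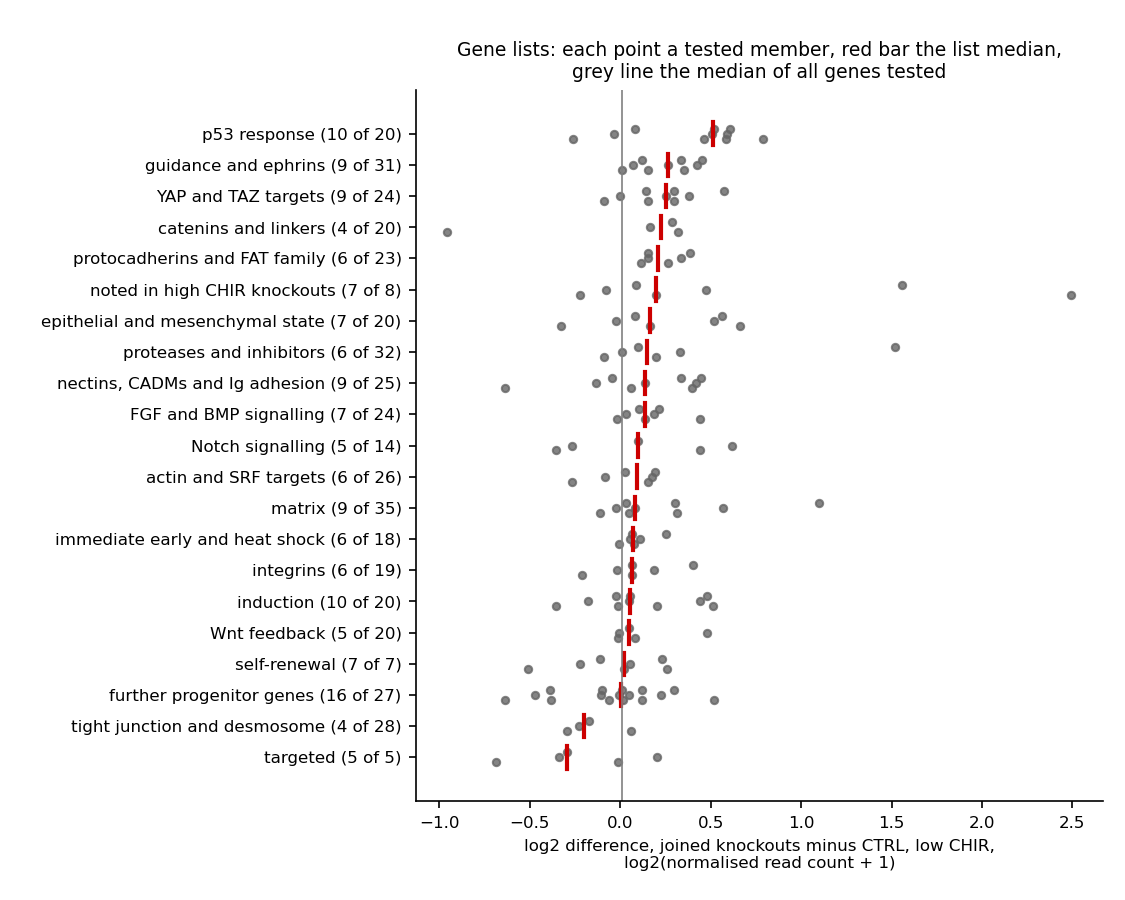
Log2 differences of joined knockouts minus CTRL in low CHIR (horizontal axis) for every tested member of 21 gene lists, with the list median in red and the median of all genes tested, 0.01, as a grey line. The p53 response list had the highest median, 0.51, and the targeted genes the lowest, -0.29. The numbers beside the names give tested members of list members.

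The other signalling lists had medians below that of the p53 response in the main fit. Guidance and ephrin genes had 9 of 31 members tested, all with estimates above 0, as 8502 of all 16314 genes had, and a median of 0.26. Leaving out CTRL replicate 1 gave a median of 0.051, and leaving out CTRL replicate 2 one of 0.43. *Robo1*, a receptor for Slit2, read 579, 494 and 414 in CTRL, 693 and 527 in α-catenin KO, and 663 and 500.4 for QCKO, and it was higher in all 4 same-date differences with a log2 difference of 0.26 (95% interval -0.13 to 0.66). FGF and BMP signalling genes had a median of 0.13 over 7 members. Among them *Spry1*, a feedback inhibitor of receptor tyrosine kinases, was higher in each knockout library, by 0.13 (95% interval -0.09 to 0.36). Notch signalling genes had a median of 0.10 over 5 members, with *Jag2* at 0.62, *Heyl* at -0.36 and *Hes1* at -0.27.

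Integrins had a median of 0.07 over 6 members and chemokine and cytokine genes one of 0.08 over 3. Of the immediate early genes 6 were tested, with a median of 0.07. The 2 tested genes of the integrated stress and hypoxia list had a median of -0.06, and *mt-Nd3*, the 1 tested mitochondrial transcript, differed by 0.18. Only 2 of the proliferation genes could be tested. *Pcna*, a replication clamp, differed by -0.07 (95% interval -0.33 to 0.19) and *Myc* by -0.15 (95% interval -0.75 to 0.46). With under 80% of their members matched to an identifier, all lists but the targeted, self-renewal and high CHIR ones describe only the members named or counted here.

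Joining the knockouts can hide genes that differ in 1 of them. In limma with 3 group means, 0 of 16314 genes (0%) were called for α-catenin KO against CTRL, 0 (0%) for QCKO against CTRL and 0 (0%) between both knockouts. At an unadjusted p under 0.05 the counts were 107, 403 and 275 genes. Both counts against CTRL rose whenever 1 CTRL library was left out. Dropping replicate 1, 2 or 3 of CTRL gave 597, 129 or 162 genes in the α-catenin KO comparison, where all libraries gave 107. The same fits gave 425, 1216 or 595 genes in the QCKO comparison, where all libraries gave 403. Dropping a knockout library leaves 1 in its group, so no counts are given for those fits. DESeq2 called 1 gene for α-catenin KO (0.00613%), *Ctnna1* itself, at an adjusted p of 3.54e-09. It called 2 genes for QCKO (0.0123%), *6030452D12Rik* and *Matn1*, at adjusted p of 1.76e-05 and 0.000123. Between the knockouts DESeq2 called 5 genes (0.0306%), namely *Ctnna1*, *Cdh11*, *6030452D12Rik*, *Matn1* and ENSMUSG00000098973, which has no symbol in the files.

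Both transcripts called for QCKO were near the CTRL level in α-catenin KO, and the DESeq2 test between the knockouts called them too. *6030452D12Rik* had 1 to 3 reads per CTRL library and 4 reads in each α-catenin KO library, against 67 and 97 reads in QCKO. The matrix protein gene *Matn1* (matrilin 1) read 55.3, 83.4 and 135 in CTRL, 77.4 and 150.2 in α-catenin KO, and 356 and 1003 for QCKO. ENSMUSG00000098973 read 9425, 8223 and 10316 in CTRL, 7611 and 8592 in α-catenin KO, and 15944 and 13683 for QCKO. *Gm26461*, lowest under α-catenin KO, had normalised counts of 12.5, 29.2 and 23.3 in CTRL, 4.3 and 0.849 in α-catenin KO, and 10.4 and 14.5 for QCKO, from 5 reads and 1 read in the α-catenin KO libraries. The limma log2 difference of α-catenin KO from CTRL was -2.78, but -1.80 with a pseudocount of 5, and -3.54 or -2.02 without replicate 1 or replicate 3 of α-catenin KO. The estimates for *Tpm1* were 0.47 for α-catenin KO and -0.17 for QCKO, and the limma difference between the knockouts, 0.64, had an unadjusted p of 0.00105 and an adjusted p of 1.

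Finally, genes noted in high CHIR for α-catenin KO, QCKO or both were followed in low CHIR. They had been chosen on the high CHIR libraries, so their high CHIR values are a description. *Rasl11a*, which encodes a Ras-like protein, read, in low CHIR, 248, 416 and 389.5 in CTRL, 218 and 357 in α-catenin KO, and 342 and 278 for QCKO. The log2 difference was -0.22 (95% interval -0.77 to 0.32) there, from -0.46 to -0.08 when 1 library was left out, and 1.48 in high CHIR. *Serpinb7*, a serine protease inhibitor gene, had 0 reads in 6 of the 7 low CHIR libraries and 1 read in the other, under the limit of 3 reads that a count of 0 allows, and no fold was taken.

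*Cxcl12*, a chemokine gene, read, again in low CHIR, 2089, 1602 and 2594 in CTRL, 2029 and 3551 in α-catenin KO, and 2303 and 3973 for QCKO, a difference of 0.47 (95% interval -0.11 to 1.06), against 1.86 in high CHIR. *Kit*, the receptor for stem cell factor, differed by 0.08 (95% interval -0.44 to 0.61) against 1.35, and *Cpm*, a membrane carboxypeptidase gene, by 0.20 (95% interval -0.18 to 0.57) against 1.27. With 1 library left out, the low CHIR difference ranged from 0.29 to 0.64 for *Cxcl12* and from 0.11 to 0.28 for *Cpm*. For *Cpm* both QCKO libraries, 1039 and 1059, were above CTRL and both α-catenin KO libraries, 741 and 737, were not. *Ceacam1*, which encodes an immunoglobulin-type adhesion molecule, read 42.8, 40.1 and 81.5 in CTRL, 45.6 and 77.2 in α-catenin KO, and 48.6 and 33.7 for QCKO, a difference of -0.08 (95% interval -0.90 to 0.74). The list also holds *Matn1* and *6030452D12Rik*, described above.

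The test of the difference itself, low minus high CHIR, gave -1.71 for *Rasl11a*, -1.39 for *Cxcl12*, -1.07 for *Cpm* and -1.26 for *Kit* on the log2 scale. Each had an unadjusted limma p below 0.01 and an adjusted p of 0.962 over all genes, so none passed. This test uses the high CHIR values for which the genes had been chosen, so the choice favours a small unadjusted p. Over all genes 0 of 16516 (0%) were called for that difference, with 479 at an unadjusted p under 0.05, and 346 (without QCKO replicate 2 of high CHIR) to 2166 (without CTRL replicate 1 of high CHIR) when 1 library was left out. In high CHIR, limma called 0 of 16445 genes (0%) for the joined knockouts, with 1664 at an unadjusted p under 0.05, and 797 (without QCKO replicate 3) to 3904 (without CTRL replicate 1) when 1 library was left out. With the date as a block limma called 2 genes there, *Serpinb7* and *Dlx5*, and DESeq2 without it called 46 (0.280%). There, 934 genes (5.68%) were above CTRL in all 4 knockout libraries and 606 (3.69%) below. Of the 46, 40 were tested in low CHIR, where 2 had an unadjusted p under 0.05, beside 1.96% of all genes, and 30 had the same sign of the difference as in high CHIR. Over the 15651 genes with a value in both conditions the sign was the same for 63.9%, and the libraries of both conditions share dates.

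**Figure D5:**
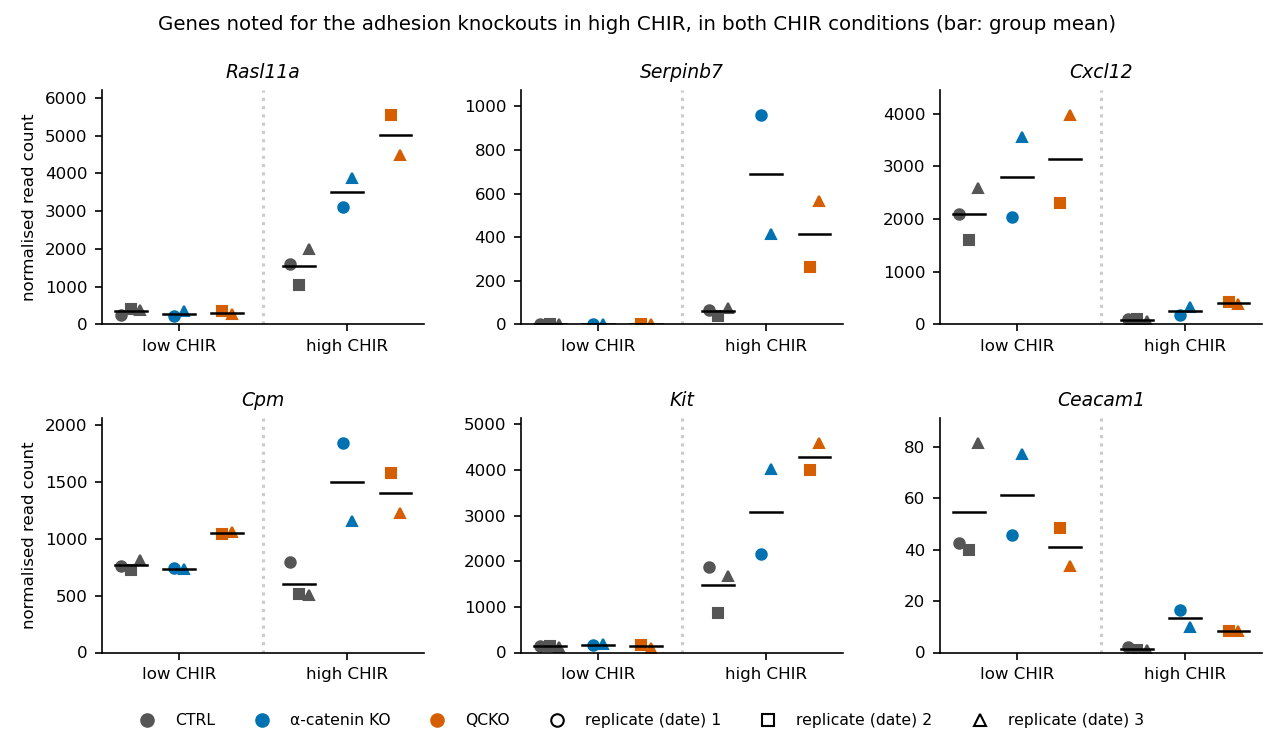
Normalised read counts (vertical axes, starting at 0) of 6 genes noted for the knockouts in high CHIR, by group in low and in high CHIR, with the date as symbol and the group mean as a bar. In low CHIR, the joined knockouts overlapped CTRL for all 6 genes, with *Serpinb7* at 0 or 1 read.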

How the data were processed

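RNA sequencing libraries of 3 CTRL, 2 α-catenin KO and 2 QCKO cultures in low CHIR were used, with their 7 high CHIR counterparts for comparison. Per the labels, cDNA was made with the SMARTer Ultra Low RNA kit and sequenced paired-end, and the submitters' processing notes name STAR, featureCounts, Salmon and DESeq2 and the builds GRCm38, mm10 and GRCh38, without saying which made this table. The authors deposited a signal table of 31130 genes, read counts divided by 1 size factor per library. All values of these 14 libraries were whole multiples of the step of their library (tolerance 0.01 reads), which gave back the reads, 18124772 to 28472412 per library. The labels name no molecular barcodes, so intervals on reads would cover counting error only. The authors' 7 comparison tables hold log2 ratios and p-values that were not used. They paired 4316 identifiers with a symbol, of which 3805 were tested, and the other genes cannot be named here. The result of 1 gene list is not reported here.

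Values were tested as log2(normalised count + 1) for genes with a mean of at least 10 over the libraries compared, with limma 3.58.1 in R 4.3.3 (trend, Benjamini-Hochberg adjustment over all genes tested). Calls needed an adjusted p below 0.05 together with a log2 difference beyond 0.5 in size, and the pseudocount understates differences of low counts. The named genes are the targeted genes, the 10 leading genes in each direction, the 3 smallest p of each single-knockout comparison, the self-renewal and high CHIR lists and up to 4 leading members of other lists, with others named after their values were seen. The members and lists were chosen with earlier results of these data known. Alternatives were pseudocounts of 0.25 and 5, no filter or one at a mean of 100, quantile normalization, a log2 difference over 1, 14 or 20 libraries, 3 group means, the replicate block, edgeR 4.0.16 (quasi-likelihood, TMM), DESeq2 1.42.0 (Wald test) and leaving out each library. Both count tests with the block and a fit without replicate 1 were added after seeing the data. The fits were tested on simulated data.

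Replicate numbers stand for dates in the sample titles, which pairs the libraries. Across genes, deviations from group means correlated at 0.0879 to 0.556 for the 4 pairs of a knockout and CTRL library of the same date and at -0.422 to 0.157 for the 8 other pairs.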

Additional observations from a re-analysis of the deposited data

Results flagged for a closer look

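In 5 of 42 values examined, 1 of the 4 knockout libraries stood apart from the other 3, with a gap to its neighbour that was a larger share of the group's range than Dixon's 95% critical value for 4 samples. Chance alone gives about 1 such value in 20, and the group of 4 joins both genotypes. The share was 0.924 for *Gxylt2*, where the QCKO library of replicate 2 was lowest of the 4, and 0.928 for *Osr1*, where the same library stood apart. It was 0.869 for *Dynlt1f*, 0.906 for *Ndufa2* and 0.842 for *Ndufa3*, and in these 3 the α-catenin KO library of replicate 1 was the one apart, on the side of CTRL.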

How the results depend on the processing

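For the joined knockouts in low CHIR, 0 genes were called under every alternative but DESeq2 with the replicate block, chosen after seeing the data, which called 10. The limma fit with the replicate block called 0 genes with 742 at an unadjusted p under 0.05, a count that ran from 131 (all 20 libraries) to 927 (no filter), and from 150 to 760 when 1 library was left out. Single-knockout calls depended on the test. DESeq2 called 1 gene for α-catenin KO, 2 for QCKO and 5 between them, leaving out 1 library gave 0 to 1 for α-catenin KO (*Ctnna1*, without CTRL replicate 2), and 14 libraries gave 1 for QCKO. In high CHIR the replicate block gave 2, DESeq2 46, and leaving out 1 library 0 to 177, the most without CTRL replicate 1. Small differences changed sign when 1 library was left out: *Cdh3* ranged from -0.22 to 0.51, *Cdh4* from -0.14 to 0.089, *Six2* from -0.20 (without CTRL replicate 3) to 0.20, *Eya1* from -0.077 to 0.16, *Meox2* from -0.40 to 0.013, *Kit* from -0.030 to 0.27 and *Ceacam1* from -0.30 to 0.24. *Cdh4* was also above 0 with quantile normalization (0.012), edgeR (0.0014) and without replicate 1 (0.045). As a percent of CTRL in QCKO, *Cdh3* ranged from 99.5 to 154 and *Cdh4* from 79.4 to 111 without 1 library, and within a date *Cdh3* was 73.8 in replicate 2 and *Cdh4* 104 in replicate 3. Without 1 library the list medians ran from -0.12 to 0.05 for self-renewal, 0.19 to 0.75 for p53, 0.11 to 0.28 for YAP and TAZ targets and 0.051 to 0.43 for guidance and ephrins. The causes were not tested. With 2 libraries per knockout, the number of libraries limits what can be called.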

Other observations

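The gene with the smallest DESeq2 p under the replicate block was ENSMUSG00000105261, which was singled out after its values were seen and has no symbol in the files. Its normalised read counts were 8533, 5259 and 21129 in CTRL, 3965 and 6478 in α-catenin KO, and 1306 and 5404 for QCKO. Each knockout library was below the CTRL library of its date, by log2 differences of -2.01 to -1.11, but CTRL libraries of different dates spanned a wide range and the replicate 3 libraries of both knockouts were above CTRL replicate 2. ENSMUSG00000035783 was called higher in the same test, with a log2 difference of 1.29. Neither was called by limma or by edgeR.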
